A study of Mus musculus with 36 samples.

Results

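Genes of ribosome biogenesis were followed in RAW264.7 cells, a macrophage-like mouse cell line made with a leukaemia virus, under lipopolysaccharide (LPS), melatonin or both. The set has 41 genes, chosen by symbol for coding nucleolar processing factors, proteins of small nucleolar ribonucleoproteins (snoRNPs) or proteins of RNA polymerase I transcription. All 41 were found among the 53465 genes of the count table, and all 41 passed the filter on low counts that left 16988 genes for testing. The 12 groups, with 3 RNA-seq libraries each, were LPS combined with melatonin (0.1, 1, 10 or 100 µM, or 1 mM), LPS alone, melatonin alone at the same doses, and solvent. LPS was given at 10 µg/mL, melatonin was added 30 min before LPS where cells received both, and all cells were collected after 12 h. All groups are the same wild-type line, whose cells carry no targeted allele. Whether the 3 libraries of a group are separate cultures is not given in the labels, so a p-value reflects library-to-library spread, which may be technical.

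A cell makes ribosomes in the nucleolus. RNA polymerase I copies the ribosomal DNA into a long precursor, box C/D and box H/ACA snoRNPs modify it, and large complexes cut and fold it into the RNAs of the small and large subunits. Many genes of this pathway are known targets of the transcription factor MYC, and in macrophages LPS, acting through Toll-like receptor 4, switches on an inflammatory programme.

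The libraries held 4203313 to 7590271 counts, and 3 counts, the upper limit for a gene with 0 counts, correspond to 0.395 to 0.714 CPM (counts scaled to library size) in a single library. Such floors cover counting error only. Summed macrophage markers lay between 3354 and 16051 CPM, all 9 of the list being detected, while markers of fibroblasts reached at most 9.38 CPM, those of T and B cells 7.48 CPM and those of epithelium and endothelium 4.78 CPM. Replicate 3 of LPS with 1 mM melatonin had the lowest total and stood apart from its group, with a chi-square per degree of freedom of 41.3 and 40.5 against its partners, compared with 15.1 between those. Replicate 3 of 1 mM melatonin and replicate 1 of 1 µM melatonin also stood apart: on a 271-gene profile of 1 mM melatonin, the first scored 5.92%, with 16.9% and 11.7% in its partners, and the second 18.9%, with -0.39% and 0.31%. The second thus lay above every library of 1 mM melatonin alone. Whether the labels of these 2 libraries were exchanged was not tested. Results that rest on these libraries are given with and without them.

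Together the 41 genes took 0.617% to 0.810% of all counts. The sum of their levels was 6468 ± 24.9 CPM in LPS with 1 mM melatonin, 8597 ± 235 CPM in LPS, 6090 ± 598 CPM in 1 mM melatonin and 7087 ± 125 CPM in solvent (SD, n = 3 each). Nucleolin (Ncl), the RNA helicase Ddx21 and nucleophosmin (Npm1) held 48.2% to 55.7% of those counts. On the authors' FPKM scale, which divides by gene length, the highest mean levels over all 36 libraries were those of Ddx21 at 266, Npm1 at 231, Nhp2 at 209.8, Ncl at 161 and Nop10 at 98.6. The lowest were Polr1e at 1.72, Rrp9 at 1.41 and Fbl at 0.827. Fibrillarin (Fbl) is the methyltransferase of box C/D snoRNPs, and only 854 counts were assigned to it over all 36 libraries. Its transcripts match another gene, Tulp4, over 690 bases at 99.6% identity, so its level is uncertain. In bulk RNA, fewer cells and less RNA per cell cannot be told apart.

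**Figure D1:**
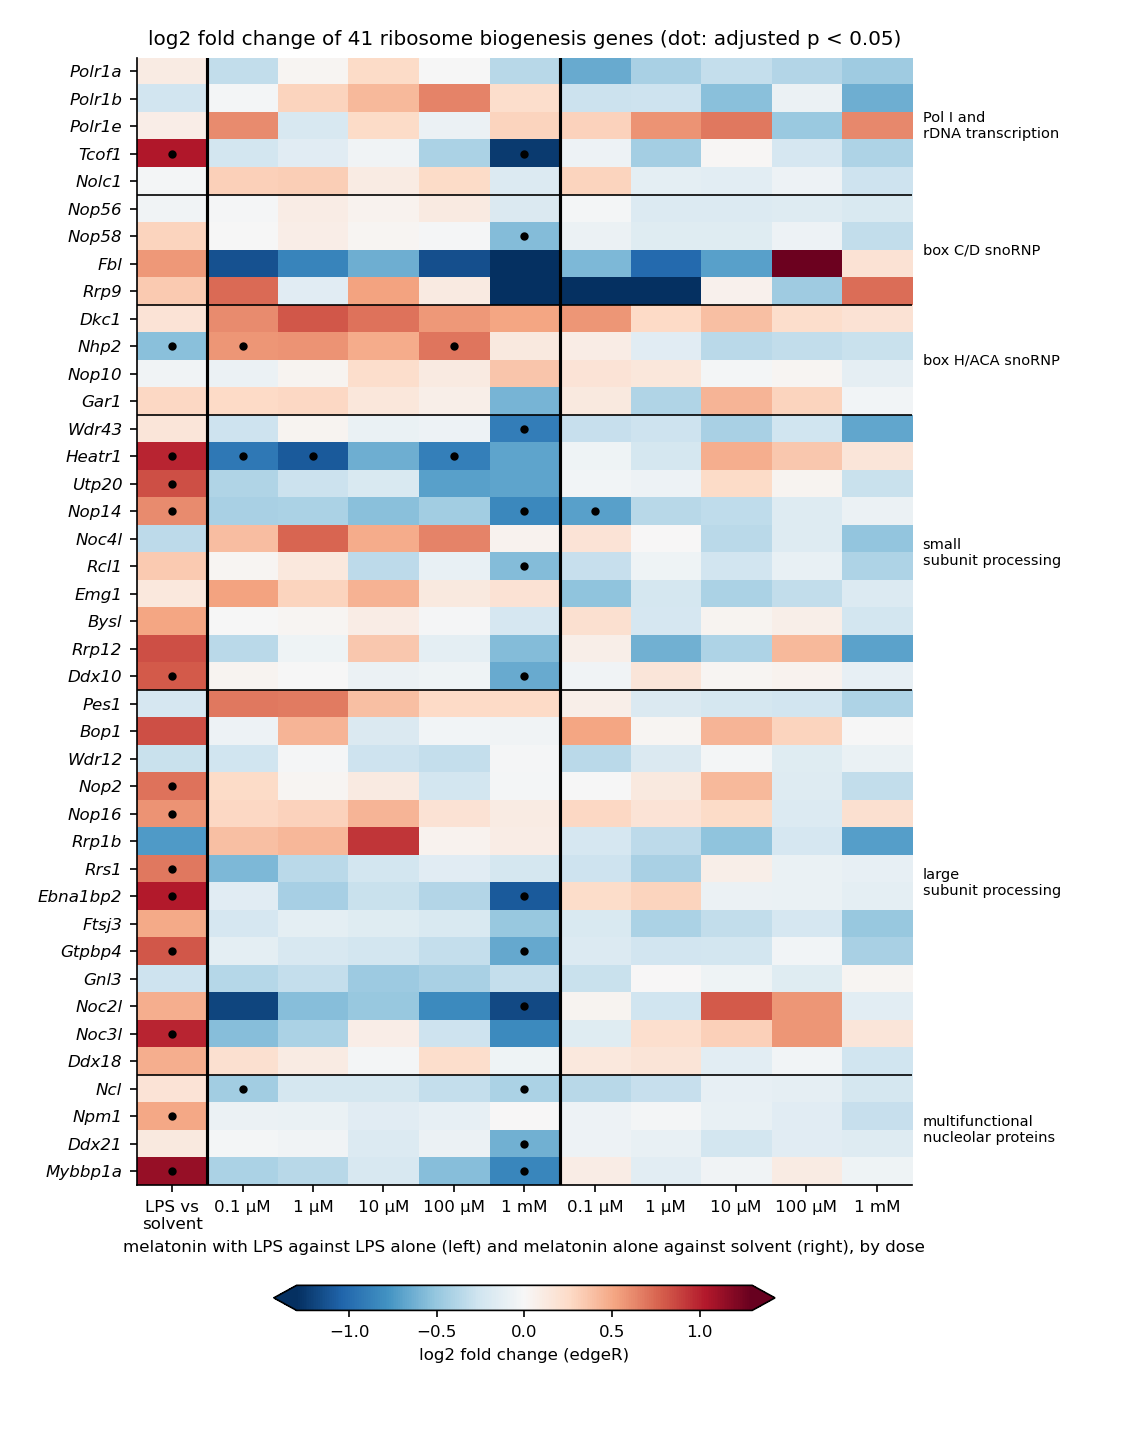
The heatmap shows the log2 fold change (colour) of each of the 41 genes (vertical axis, grouped by role) in LPS against solvent (first column), LPS with melatonin against LPS by dose (middle columns) and melatonin against solvent by dose (right columns). Values beyond the ends of the colour bar take its end colours. Dots mark an adjusted p below 0.05: 14 genes in the first column, 12 at 1 mM with LPS, and 7 in the remaining columns.

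LPS raised part of the pathway. Of 41 genes, 13 were higher in LPS than in solvent and 1 was lower, which is 31.7% and 2.44%, beside 8.4% higher and 8.09% lower among all genes tested (edgeR's quasi-likelihood test, Benjamini-Hochberg adjusted p below 0.05). The median log2 fold change of the 41 genes was 0.34, and that of all genes -0.02. Fold changes were positive in 31 genes and negative in 10. The genes that rose were factors of both subunits, multifunctional nucleolar proteins and Tcof1, while no box C/D protein passed the test.

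Among the genes of rDNA transcription, only Tcof1 of 5 passed. Treacle, its product, links RNA polymerase I to ribosomal DNA. Tcof1 had 337, 304 and 343 CPM in LPS, against 138, 198 and 143 CPM in solvent. The LPS libraries all lay above the solvent libraries, and the log2 fold change was 1.04 ± 0.17 (SE; adjusted p = 1.2e-05). The large subunits of the polymerase overlapped between the groups. Polr1a had 58.6, 66.4 and 48.6 CPM in LPS, against 50.3, 51.7 and 59.0 CPM in solvent, and Polr1b had 12.7, 30.0 and 29.0 CPM in LPS, against 36.9, 27.9 and 20.2 CPM in solvent. Nolc1, a chaperone of snoRNPs, had a log2 fold change of -0.03 ± 0.16, and Polr1e, at a mean of 5.94 CPM in LPS and 5.61 CPM in solvent, could be placed only to within ± 0.71.

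Of the 8 snoRNP proteins, 1 passed, and it was lower. Nhp2, a core protein of box H/ACA particles, which convert uridine to pseudouridine, had 183, 204 and 169.9 CPM in LPS, against 263, 287 and 264 CPM in solvent. All 3 LPS libraries were lower, and the log2 fold change was -0.55 ± 0.15 (adjusted p = 0.0080). Dkc1, the pseudouridine synthase, had 42.0, 41.9 and 34.7 CPM in LPS, against 28.5, 34.5 and 41.5 CPM in solvent. Dkc1, Nop10 and Gar1 had log2 fold changes of 0.18, -0.04 and 0.27, none past the test. Of the box C/D proteins, Nop58 had 393, 374 and 439 CPM in LPS, against 338, 312 and 334 CPM in solvent, with no overlap but an adjusted p of 0.16. Its partner Nop56 had 229, 229 and 208 CPM in LPS, against 246, 224 and 218 CPM in solvent. Fbl had 9.86, 5.53 and 1.39 CPM in LPS, against 0.849, 6.28 and 4.195 CPM in solvent, too few reads to place it.

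In small subunit processing, 4 of 10 genes rose. Heatr1, a scaffold of the U3 processome, had 113, 81.7 and 58.1 CPM in LPS, against 48.8, 42.1 and 36.4 CPM in solvent. The groups did not overlap although the LPS libraries differed widely, and the log2 fold change was 0.99 ± 0.24 (adjusted p = 0.0016). Ddx10, a helicase of the same pathway, had 354, 294 and 338 CPM in LPS, against 198, 212 and 157 CPM in solvent (log2 fold change 0.80 ± 0.17, adjusted p = 0.00046). Nop14, which acts in cleavage of the 18S precursor, had 269.9, 256 and 254 CPM in LPS, against 174, 166 and 168 CPM in solvent. Both groups were tight and far apart, and the log2 fold change was 0.62 ± 0.16 (adjusted p = 0.0039). Utp20, a very large processome component, had 82.1, 119.8 and 152 CPM in LPS, against 52.8, 63.9 and 80.2 CPM in solvent (log2 fold change 0.84, adjusted p = 0.0071). The others of this group, Wdr43, Noc4l, Rcl1, Emg1, Bysl and Rrp12, had log2 fold changes between -0.34 and 0.83 and did not pass.

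In large subunit processing, 6 of 14 genes rose. Ebna1bp2, needed for 27S precursor processing in yeast, had 133, 139 and 139 CPM in LPS, against 53.2, 71.1 and 76.7 CPM in solvent. LPS libraries lay close together and well above solvent, and the log2 fold change was 1.03 ± 0.25 (adjusted p = 0.0020). Gtpbp4, a nucleolar GTPase, had 103, 114 and 104 CPM in LPS, against 65.4, 59.4 and 59.2 CPM in solvent (log2 fold change 0.81 ± 0.20, adjusted p = 0.0024). Noc3l, Nop2, Rrs1 and Nop16 rose by 0.99, 0.71, 0.69 and 0.59 on the log2 scale. The 3 proteins of the PeBoW complex did not pass, with log2 fold changes of 0.83 for Bop1, -0.21 for Pes1 and -0.29 for Wdr12. Bop1 had 23.5, 25.2 and 31.8 CPM in LPS, against 18.5, 15.9 and 10.8 CPM in solvent, with no overlap. Pes1 had 54.3, 61.6 and 37.8 CPM in LPS, against 68.0, 52.3 and 58.1 CPM in solvent, and Wdr12 had 48.8, 33.9 and 24.98 CPM in LPS, against 38.9, 47.6 and 45.1 CPM in solvent. Gnl3, nucleostemin, averaged 136 ± 4.69 CPM in LPS and 163 ± 3.08 CPM in solvent, with no overlap but an adjusted p of 0.26.

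Of the multifunctional proteins, Mybbp1a and Npm1 passed. Mybbp1a, a nucleolar protein that binds MYB and RNA polymerase I, lies at chr11:72441355-72451768 (mm10) on the forward strand. It had 208, 212 and 202 CPM in LPS, against 103, 82.0 and 98.7 CPM in solvent. That was the smallest adjusted p of the 41 genes here (4.7e-07; log2 fold change 1.13 ± 0.16), and the groups were far apart. Npm1, a histone and ribosome chaperone, had 728, 835 and 796 CPM in LPS, against 561, 589 and 510.4 CPM in solvent (log2 fold change 0.51 ± 0.18, adjusted p = 0.048). Ncl and Ddx21, both abundant, did not pass: Ncl had 2138, 1985 and 2169.8 CPM in LPS, against 1836, 1800.2 and 1913 CPM in solvent, and Ddx21 averaged 1616 ± 76.7 CPM in LPS and 1479 ± 74.8 CPM in solvent (SD, n = 3 each).

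Tcof1, Heatr1, Nop14, Ddx10, Ebna1bp2, Gtpbp4 and Mybbp1a kept their calls under all 14 alternatives run, and the other 7 did not. Noc3l and Npm1 lost theirs without any single library of the 6. Nop2 lost its call without any 1 solvent library or LPS replicate 1, Rrs1 without solvent replicate 2 or 3 or LPS replicate 2 or 3, Nop16 without solvent replicate 2 or LPS replicate 1 or 3, Utp20 without solvent replicate 1 or LPS replicate 3, and Nhp2 without LPS replicate 3. Leaving out solvent replicate 2 or LPS replicate 3 left 8 genes higher.

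With 1 mM melatonin added to LPS, the genes that fell were 1 of 5 of rDNA transcription, 1 of 4 box C/D proteins, 4 of 10 of small subunit processing, 3 of 14 of large subunit processing and 3 of 4 multifunctional proteins. Of 41 genes, 0 were higher and 12 lower in LPS with 1 mM melatonin than in LPS, which is 29.3% lower, beside 2.84% higher and 4.71% lower among all genes tested. At an unadjusted p below 0.05, 2 genes were higher and 16 lower, and DESeq2 called 0 higher and 14 lower. The median log2 fold change of the 41 genes was -0.36, and that of all genes 0.02. This comparison shares the LPS libraries with the one above, so its values are not independent of it and are given side by side only.

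Tcof1 had 155, 123 and 136 CPM in LPS with 1 mM melatonin, against 337, 304 and 343 CPM in LPS. No library overlapped, and the log2 fold change was -1.25 ± 0.18 (adjusted p = 1.75e-06). Mybbp1a had 119, 96.8 and 129 CPM with melatonin, against 208, 212 and 202 CPM in LPS (log2 fold change -0.85 ± 0.16, adjusted p = 0.00023). In LPS with 0.1, 1, 10 or 100 µM melatonin, every library of Mybbp1a also lay below those of LPS, between 128 and 195 CPM. None of these doses passed the test for Mybbp1a in the main fit. Wdr43, a processome protein that LPS alone had not moved past the test, had 61.1, 51.1 and 63.5 CPM with melatonin, against 109, 101 and 117 CPM in LPS. All of its melatonin libraries were lower, with a log2 fold change of -0.90 ± 0.19 (adjusted p = 0.00090). These 3 genes kept their calls under all 14 alternatives.

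The other 9 calls were Nop14, Ebna1bp2, Ddx21, Ncl, Nop58, Ddx10, Gtpbp4, Noc2l and Rcl1. In 5 of them replicate 3 of LPS with 1 mM melatonin lay far below its partners. Nop14 had 173, 169.9 and 90.4 CPM with melatonin, against 269.9, 256 and 254 CPM in LPS. Its log2 fold change was -0.84 with that library and -0.60 without it, both past the test. In LPS with 0.1, 1, 10 or 100 µM melatonin, every library of Nop14 also lay below those of LPS, between 163 and 218 CPM. None of these doses passed the test for Nop14 in the main fit. Ebna1bp2 had 79.7, 84.3 and 27.7 CPM with melatonin, against 133, 139 and 139 CPM in LPS, with log2 fold changes of -1.09 with the library and -0.74 without it, and the call held. Ddx21, a helicase that couples RNA polymerase I and II transcription, had 1314, 1196 and 639 CPM with melatonin, against 1645, 1529 and 1674 CPM in LPS. Every melatonin library was lower, by a log2 fold change of -0.62 with replicate 3 and -0.37 without it (adjusted p = 0.017). Ddx10 had 269, 235 and 121 CPM with melatonin, against 354, 294 and 338 CPM in LPS, and lost its call without the library (log2 fold change -0.38, adjusted p = 0.12). Nop58 likewise lost its call without it (332, 287 and 195 CPM with melatonin, against 393, 374 and 439 CPM in LPS; log2 fold change -0.38, adjusted p = 0.083).

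Ncl, which binds pre-rRNA and is among the most abundant nucleolar proteins, had 1489.9, 1697 and 1537 CPM with melatonin, against 2138, 1985 and 2169.8 CPM in LPS (log2 fold change -0.41 ± 0.09, adjusted p = 0.0029). The fall was small in fold and held without replicate 3 at -0.40. It was not particular to 1 mM. In LPS with 0.1, 1, 10 or 100 µM melatonin, every library of Ncl also lay below those of LPS, between 1440 and 1871 CPM. Of these doses, only 0.1 µM passed the test for Ncl in the main fit. Gtpbp4, Noc2l and Rcl1 fell by 0.67, 1.18 and 0.56 on the log2 scale. Noc2l was near 12 CPM with melatonin (12.7, 6.47 and 15.8 CPM, against 24.7, 30.9 and 23.1 CPM in LPS). It was as low in LPS with 0.1 µM melatonin (11.9, 12.0 and 10.4 CPM). Every library at 1 and 100 µM also lay below those of LPS, while 10 µM overlapped them. None of these lower doses passed the test for Noc2l in the main fit. Gtpbp4 and Noc2l lost their calls without any 1 LPS library or without replicate 1 or 2 of LPS with 1 mM melatonin, Rcl1, whose groups overlapped, without LPS replicate 1 or 3 or replicate 2 or 3 of the melatonin group, Ddx10 also without LPS replicate 1, and Nop58 also without LPS replicate 3. When only the 6 compared libraries were fitted, Tcof1, Wdr43 and Mybbp1a were the 3 genes that passed.

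Npm1 gained a call without this library. It had 558, 504 and 1308 CPM in LPS with 1 mM melatonin, against 728, 835 and 796 CPM in LPS. Replicates 1 and 2 lay below every LPS library and replicate 3 above them all. The log2 fold change was 0.01 ± 0.18 with the library and -0.57 ± 0.12 without it (adjusted p = 1 and 0.0012). Several genes raised by LPS did not fall past the test: Nop2 (log2 fold change -0.02), Nop16 (0.11) and Rrs1 (-0.23), with Heatr1 (-0.68, adjusted p = 0.066) and Utp20 (-0.69, adjusted p = 0.058) close to the threshold. The polymerase and the other core genes did not pass either. Polr1a had 32.8, 44.6 and 58.1 CPM with melatonin (log2 fold change -0.36), and Polr1b 29.7, 27.6 and 26.9 CPM (0.23). Nop56 had 202, 208 and 176 CPM with melatonin (log2 fold change -0.18), and Dkc1 48.6, 42.7 and 78.8 CPM (0.52). Bop1 had 23.8, 22.9 and 31.5 CPM (-0.04), Pes1 39.2, 66.3 and 79.0 CPM (0.26), Wdr12 27.9, 31.2 and 47.9 CPM (-0.01), and Fbl 1.07, 1.15 and 2.59 CPM (-1.80). Their libraries overlapped those of LPS given above, except for Dkc1, whose melatonin libraries were all higher (adjusted p = 0.20). Summed macrophage markers also moved in this comparison, at 3354 to 4491 CPM in LPS with 1 mM melatonin and 13183 to 13363 CPM in LPS, with 6 of 9 lower. Their part in the result was not tested.

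**Figure D2:**
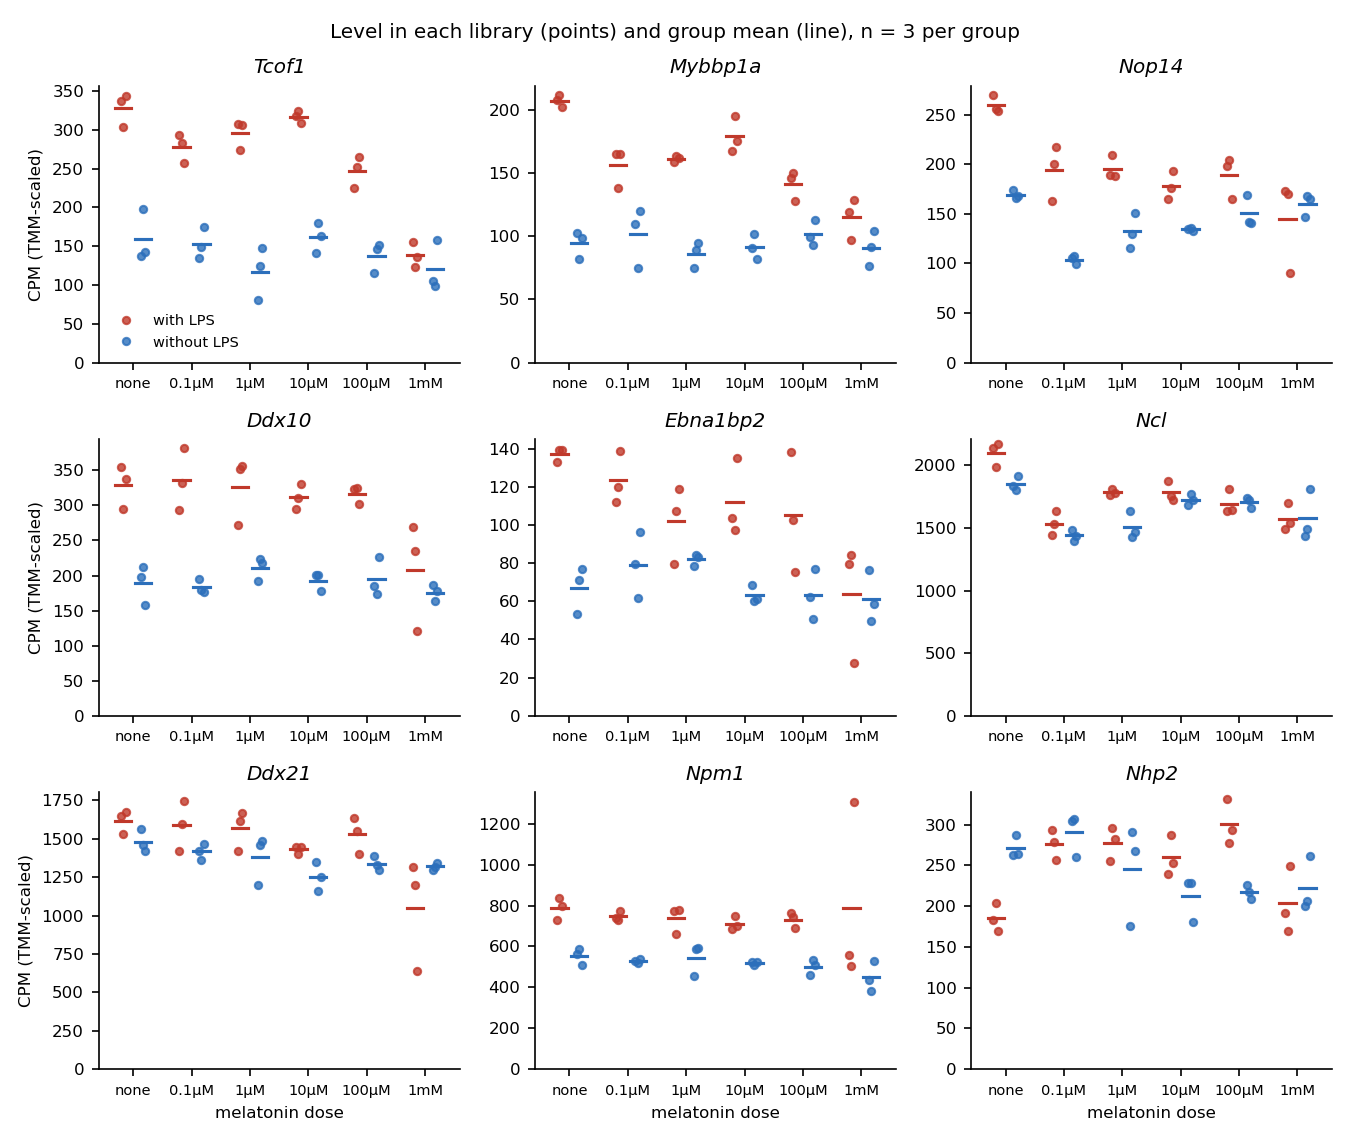
Levels of 9 genes in CPM (vertical axis, from 0) in each library (points) with group means (lines, n = 3), by melatonin dose (horizontal axis) with LPS (red, left) and without LPS (blue, right). Tcof1 and Mybbp1a with LPS lie lowest at 1 mM, replicate 3 of LPS with 1 mM melatonin stands apart in Ddx21 (639 CPM) and Npm1 (1308 CPM), and Nhp2 is low in LPS without melatonin.

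When the LPS response was measured in cells that all received 1 mM melatonin, fewer genes passed. Of 41 genes, 3 were higher and 1 lower in LPS with 1 mM melatonin than in 1 mM melatonin, which is 7.32% and 2.44%, beside 4.87% higher and 4.75% lower among all genes. The median log2 fold change was 0.19, and that of all genes 0.00. Nop2, a methyltransferase of 28S RNA, had 71.4, 62.6 and 56.9 CPM in LPS with melatonin, against 25.5, 28.6 and 40.8 CPM in melatonin alone. The groups were apart, with a log2 fold change of 1.01 ± 0.23 (adjusted p = 0.0023). Ddx18, a helicase of the large subunit, had 64.7, 87.6 and 99.2 CPM in LPS with melatonin, against 47.6, 55.7 and 54.3 CPM in melatonin alone (log2 fold change 0.67, adjusted p = 0.029). Gnl3 had 85.4, 124 and 120.1 CPM in LPS with melatonin, against 180.0, 180.2 and 137 CPM in melatonin alone (log2 fold change -0.60, adjusted p = 0.0083).

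Npm1 was also higher, by 0.81 on the log2 scale, but its call was lost without replicate 3 of LPS with 1 mM melatonin (log2 fold change 0.24, adjusted p = 0.28). The call of Ddx18 was lost without any 1 melatonin library or replicate 2 or 3 of LPS with 1 mM melatonin, and that of Gnl3 without melatonin replicate 1 or 2 or replicate 1 of LPS with 1 mM melatonin. With only the 6 compared libraries fitted, 0 genes passed, Nop2 having an adjusted p of 0.051. Without the 2 doubtful libraries of melatonin alone, 6 genes were higher (14.6%) and 1 lower, beside 4.64% higher and 3.65% lower among all genes in that fit.

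Whether the LPS response itself differed with 1 mM melatonin was tested by the interaction of both. At an adjusted p below 0.05, 0 of 41 genes passed, where 1.69% of all genes did in either direction. At an unadjusted p below 0.05, 0 were higher and 7 lower, and DESeq2 called 3, all lower. Mybbp1a (interaction -0.79 ± 0.23, adjusted p = 0.059), Tcof1 (-0.84 ± 0.25, adjusted p = 0.066) and Nop14 (-0.76 ± 0.23, adjusted p = 0.073) came closest. Ebna1bp2, Heatr1, Ddx10 and Ddx21 were the other 4, with interactions of -0.97, -0.84, -0.55 and -0.46. Leaving out 1 of the 12 libraries in turn left 0 or 1 gene past the test. The gene was Mybbp1a without replicate 3 of LPS with 1 mM melatonin (-0.88, adjusted p = 0.028) or 1 mM melatonin replicate 1, Tcof1 without solvent replicate 2 or 1 mM melatonin replicate 2, and Nop14 without replicate 1 or 2 of LPS with 1 mM melatonin. DESeq2's 3 genes were the same. Without the 2 libraries in doubt, 0 passed, and 3 were higher and 8 lower at an unadjusted p below 0.05.

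**Figure D3:**
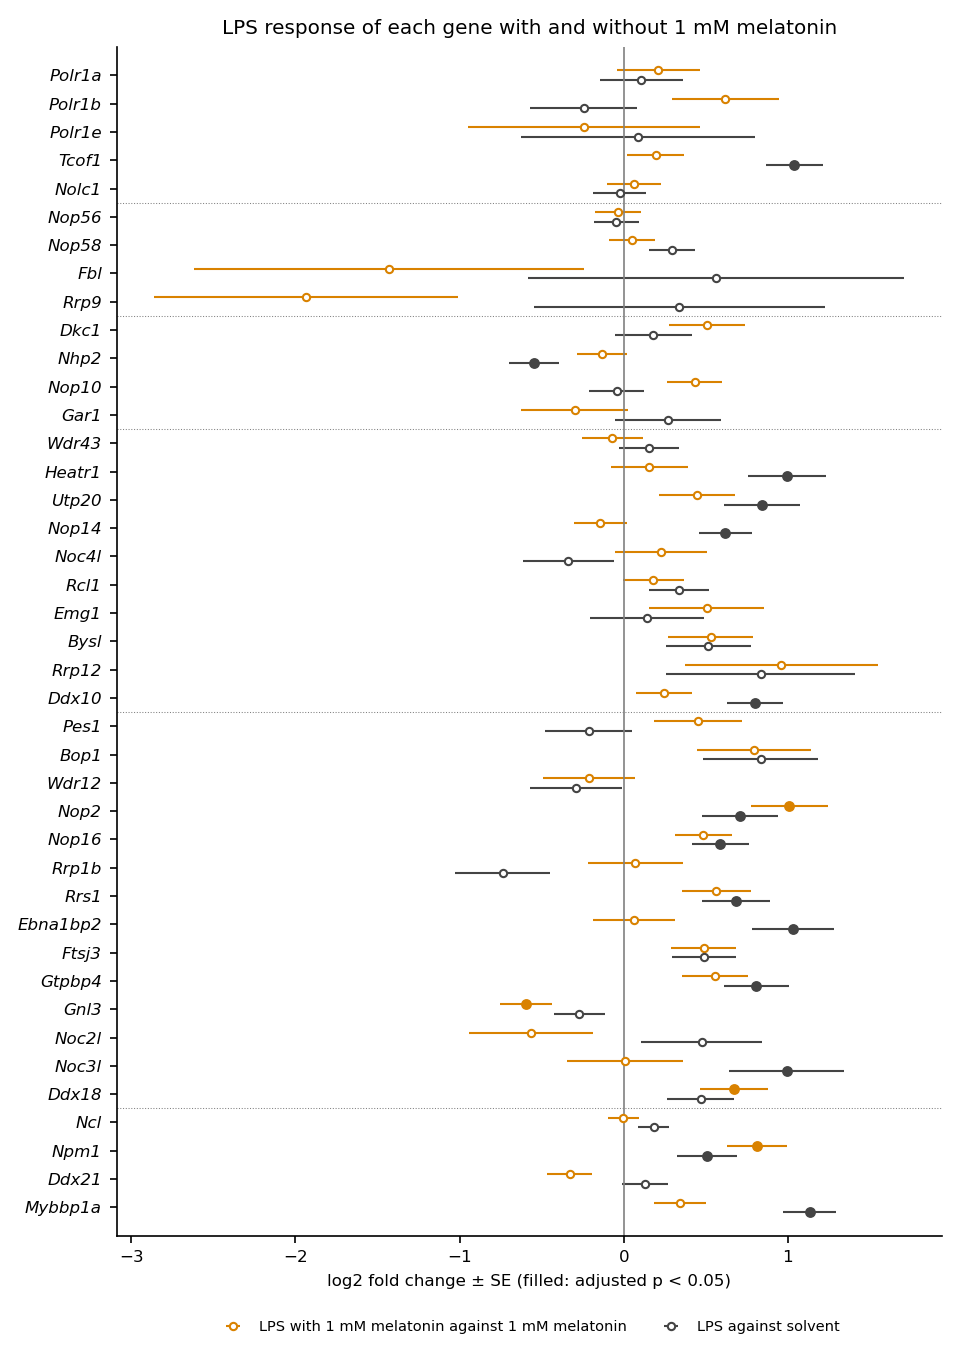
LPS response of each gene (vertical axis, in the order of their roles) as log2 fold change with its SE (horizontal axis), in 1 mM melatonin (orange) and in solvent (grey), filled where the adjusted p was below 0.05. Mybbp1a sits at 0.34 in melatonin and 1.13 in solvent, Tcof1 at 0.19 and 1.04, while Nop2 sits at 1.01 and 0.71.

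With melatonin alone the count depended on the libraries in doubt. At 1 mM against solvent with all libraries, 0 of 41 genes passed, where 0.418% of all genes did. At an unadjusted p below 0.05, 0 were higher and 8 lower, and DESeq2 called 0 higher and 1 lower. The median log2 fold change was -0.19, and that of all genes 0.00, with 33 of 41 values negative. Wdr43 had 55.2, 49.8 and 79.2 CPM in 1 mM melatonin, against 94.8, 93.3 and 106 CPM in solvent (log2 fold change -0.68 ± 0.19, adjusted p = 0.094). All melatonin libraries were lower, the doubtful replicate 3 the least. Without replicate 3 and the doubtful 1 µM library, 5 of 41 genes (12.2%) passed, all lower, beside 1.98% of all genes lower, and the median log2 fold change was -0.33. They were Wdr43 (-0.90), Ftsj3 (-0.65), Tcof1 (-0.65), Nop58 (-0.50) and Ncl (-0.34).

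At the other doses alone the share of all genes called was 0.341% for 0.1 µM, 0.147% for 1 µM, and 0.0824% for both 10 and 100 µM. Of 41 genes, 1 passed at 0.1 µM and 0 at 1, 10 and 100 µM, where 5, 4 and 1 had an unadjusted p below 0.05 and DESeq2 called 1, 0 and 0. Without the 2 libraries in doubt, 0 passed at 1 µM and 1 had an unadjusted p below 0.05. The gene at 0.1 µM was Nop14, with 105, 107 and 99.1 CPM in 0.1 µM melatonin, against 174, 166 and 168 CPM in solvent. The groups were far apart (log2 fold change -0.70 ± 0.16, adjusted p = 0.033), but leaving out any 1 of the 6 libraries ended the call. Group means of Nop14 were 104, 132, 134, 151 and 160 CPM from 0.1 µM to 1 mM, after 169 CPM in solvent.

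With LPS, the share of all genes called against LPS alone was 1.36% for 0.1 µM, 0.612% for 1 µM, 0.371% for 10 µM and 1.18% for 100 µM. Of 41 genes, 3, 1, 0 and 2 passed at these doses. At 10 µM, 4 genes were higher and 4 lower at an unadjusted p below 0.05, and DESeq2 called 1. Leaving out 1 of the 6 libraries in turn left at most 1 call at any of these doses, and no call was kept in all 6. Nhp2 at 100 µM lost its call without LPS replicate 3 or 100 µM replicate 1 and kept it in the other 4 fits. Heatr1 at 1 µM lost its call without LPS replicate 1 or 1 µM replicate 2 or 3, and Ncl at 0.1 µM without LPS replicate 3 or 0.1 µM replicate 1 or 2. Heatr1 kept its call in 1 of 6 fits at 0.1 µM (without LPS replicate 3) and in 1 of 6 at 100 µM (also without LPS replicate 3), and Nhp2 at 0.1 µM in 0 of 6.

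Heatr1 was lower than in LPS at 0.1, 1 and 100 µM (log2 fold changes -0.93, -1.09 and -0.89). It had 48.0, 43.1 and 42.0 CPM at 0.1 µM, 50.4, 38.0 and 30.6 CPM at 1 µM, 58.4, 55.3 and 49.3 CPM at 10 µM, 39.1, 47.6 and 50.2 CPM at 100 µM and 35.4, 72.5 and 49.9 CPM at 1 mM, after 113, 81.7 and 58.1 CPM in LPS. LPS replicate 1 was the highest of all, while LPS replicate 3 overlapped the 10 µM and 1 mM groups. Heatr1 overlaps Lgals8 on the opposite strand, with 11154 counts for Lgals8 beside 11823 for Heatr1, and since no strand setting is stated, reads in the overlap cannot be told apart. In all, 23 of the 41 genes overlap another gene, 20 of them on the opposite strand, Nhp2 with Rmnd5b, Gnl3 with Pbrm1 and Dkc1 with Mpp1 among them.

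Nhp2 was the reverse. It had 294, 278 and 257 CPM at 0.1 µM, 256, 296 and 282 CPM at 1 µM, 240.0, 287 and 253 CPM at 10 µM, 332, 277 and 294 CPM at 100 µM and 192, 169.8 and 249 CPM at 1 mM, after 183, 204 and 169.9 CPM in LPS. Every library from 0.1 to 100 µM lay above all LPS libraries, and the calls were those at 0.1 µM (log2 fold change 0.57, adjusted p = 0.044) and 100 µM (0.70, adjusted p = 0.0087). At 1 mM the groups overlapped. All of these contrasts share the same 3 LPS libraries. Ncl passed at 0.1 µM, with 1440.1, 1530.1 and 1632 CPM, against 2138, 1985 and 2169.8 CPM in LPS (log2 fold change -0.45, adjusted p = 0.0068).

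A slope over log10 dose was fitted across the LPS groups with melatonin. In this fit, 7 of 41 genes passed, all falling with dose, which is 17.1%, beside 7% of all genes in either direction. They were Tcof1 (-0.23 per 10-fold dose), Ebna1bp2 (-0.18), Rcl1 (-0.14), Ddx10 (-0.14), Wdr43 (-0.13), Nop58 (-0.12) and Ddx21 (-0.12). Tcof1 kept its call under all 20 alternatives. Nop58 kept its call in 19 of them, Ddx21 in 18, Ddx10 in 17, Rcl1 in 14, Ebna1bp2 in 12 and Wdr43 in 10. Among the 12 fits that each left out 1 library, Wdr43 kept its call in 3, Ebna1bp2 in 5 and Rcl1 in 7. Without replicate 3 of LPS with 1 mM melatonin, Ebna1bp2, Rcl1, Ddx10 and Nop58 lost their calls. Nhp2, Nop10, Gtpbp4, Npm1 and Mybbp1a gained one in that fit. The count was 3 (7.32%, beside 4.78% of all genes lower) when the libraries of the other groups were left out of the fit, 3 without 0.1 µM replicate 3, and 4 without 0.1 µM replicate 2 or 1 µM replicate 3. Without the 1 mM group, 0 of 41 genes passed, where 0.0177% of all genes did, 2 were higher and 0 lower at an unadjusted p below 0.05, and DESeq2 called 0. Group means of Tcof1 were 278, 296, 317, 247 and 138 CPM from 0.1 µM to 1 mM, after 328 CPM in LPS.

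Processed pseudogenes, copies of the messenger RNA inserted back into the genome, held 19.5% to 21.5% of all counts in a library. Reads on such copies were thus common in the whole series and not particular to this set. Of 41 genes, 7 had at least 1 such copy elsewhere that was at least 95% identical over at least 200 bases, and in 4 the copies held more reads than the gene. Copies held 94.7% of the reads for Wdr12 (copy Gm4879), 80.3% for Pes1 (Gm5472 and Gm5910), 72.8% for Ddx18 (mostly Gm16433) and 57.1% for Npm1 (5 copies). For Nop56 the share was 17.7%, for Ddx21 0.852% and for Fbl 0%. Reads of a gene and such a copy are hard to tell apart, so the levels of Wdr12, Pes1, Ddx18 and Npm1 are uncertain.

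Gene and copies were therefore also summed, a setting chosen after the data were seen. The sum for Wdr12 was lower in LPS with 1 mM melatonin than in LPS (log2 fold change -0.62 ± 0.12, adjusted p = 0.00028), where the gene alone had -0.01. Its copy had 541, 598 and 416 CPM in LPS with 1 mM melatonin, against 882, 799.8 and 771 CPM in LPS, with no overlap. The sum for Pes1 was lower in the same comparison (-0.60 ± 0.15, adjusted p = 0.0077), where the gene alone had 0.26. Its copies had 186, 224 and 166 CPM in LPS with 1 mM melatonin, against 340.1, 328 and 326 CPM in LPS. They were also lower at the other doses, averaging 214, 205, 228 and 220 CPM in LPS with 0.1, 1, 10 and 100 µM melatonin. The lower level of the Pes1 copies was thus not particular to 1 mM. For Ddx18 the sum was higher in LPS than in solvent (0.81 ± 0.14, adjusted p = 2.4e-05), where the gene alone had 0.47. For Npm1 the sum kept its call in LPS (0.43, adjusted p = 0.030) but not in LPS with 1 mM melatonin against 1 mM melatonin (0.39, adjusted p = 0.077).

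**Figure D4:**
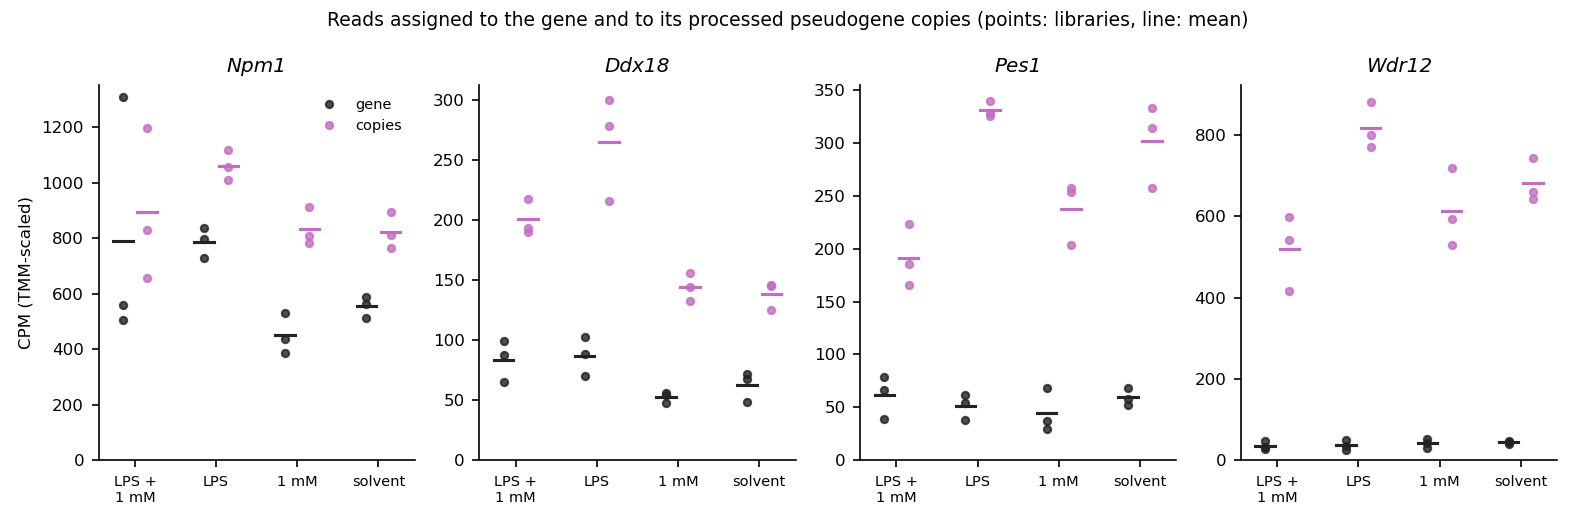
Reads in CPM (vertical axis, from 0) assigned to Npm1, Ddx18, Pes1 and Wdr12 (black) and to their processed pseudogene copies (violet) in each library (points, lines show means) of 4 groups (horizontal axis). The copies of Wdr12 and Pes1 lie lower in LPS with 1 mM melatonin than in LPS, whereas the genes themselves overlap, with means of 35.7 and 35.9 CPM for Wdr12 and 61.5 and 51.2 CPM for Pes1.

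MYC binds DNA with its partner MAX at the E-box, written CACGTG. The start regions of the genes, from 250 bases before to 50 after the RefSeq start, were searched for these letters, which read the same on both strands. A window was searched for 35 of the 41 genes, and 5 of these (14.3%) held the motif, beside 7.15% of all 32851 windows of this length and 9.19% of protein-coding genes. The genes were Mybbp1a, Nop2 and Utp20, which rose with LPS, Wdr43, which was lower with 1 mM melatonin in LPS, and Pes1. Heatr1, Nop14, Ddx10, Nop16, Ebna1bp2, Gtpbp4 and Noc3l also rose with LPS, and their windows lacked the motif. Tcof1 was left out of this search, and no window was available for Rrs1 and Npm1, which also rose with LPS. Whether the start regions of these genes hold the motif was not examined. The shares for all windows and for protein-coding genes had no exclusion like that of Tcof1. The 5 windows are shown because they place the motif beside the start of genes whose levels are given above. They are from RefSeq on GRCm38.p6, run 5′ to 3′ along the gene's strand, and capitals mark CACGTG:
Mybbp1a, + strand, chr11:72441077-72441376: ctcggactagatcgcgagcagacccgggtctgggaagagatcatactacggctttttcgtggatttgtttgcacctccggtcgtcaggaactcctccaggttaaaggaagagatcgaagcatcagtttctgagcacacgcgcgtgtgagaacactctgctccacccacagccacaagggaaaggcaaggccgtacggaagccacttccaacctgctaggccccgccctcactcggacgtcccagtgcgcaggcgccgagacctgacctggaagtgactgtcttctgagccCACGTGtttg
Nop2, + strand, chr6:125131633-125131932: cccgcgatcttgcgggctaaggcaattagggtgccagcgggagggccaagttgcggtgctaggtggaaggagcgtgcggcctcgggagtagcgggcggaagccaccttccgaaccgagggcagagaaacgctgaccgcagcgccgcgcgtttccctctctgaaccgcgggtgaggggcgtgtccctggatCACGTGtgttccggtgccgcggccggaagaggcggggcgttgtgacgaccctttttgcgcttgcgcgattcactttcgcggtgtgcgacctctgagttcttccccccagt
Utp20, - strand, chr10:88826765-88827064: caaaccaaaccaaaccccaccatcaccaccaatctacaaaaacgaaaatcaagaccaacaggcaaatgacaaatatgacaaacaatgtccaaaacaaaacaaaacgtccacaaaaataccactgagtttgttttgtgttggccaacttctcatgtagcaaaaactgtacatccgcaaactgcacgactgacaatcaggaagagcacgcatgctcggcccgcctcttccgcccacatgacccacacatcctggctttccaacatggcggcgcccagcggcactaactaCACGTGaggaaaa
Wdr43, + strand, chr17:71615965-71616264: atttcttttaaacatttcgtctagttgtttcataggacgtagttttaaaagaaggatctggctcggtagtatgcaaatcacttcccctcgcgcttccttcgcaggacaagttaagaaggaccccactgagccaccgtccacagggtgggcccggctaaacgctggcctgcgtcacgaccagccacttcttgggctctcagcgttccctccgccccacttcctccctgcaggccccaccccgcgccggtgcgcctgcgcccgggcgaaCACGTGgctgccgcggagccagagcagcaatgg
Pes1, + strand, chr11:3963725-3964024: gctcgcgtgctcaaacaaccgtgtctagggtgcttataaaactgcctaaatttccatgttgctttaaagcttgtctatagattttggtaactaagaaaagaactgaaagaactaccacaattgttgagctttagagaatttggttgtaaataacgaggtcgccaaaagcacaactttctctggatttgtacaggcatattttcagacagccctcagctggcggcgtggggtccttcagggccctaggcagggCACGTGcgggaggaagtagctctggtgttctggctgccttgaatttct

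The motif begins at position 40 from the start in Mybbp1a, -60 in Nop2, 37 in Utp20, 17 in Wdr43 and 2 in Pes1. A match is a description of these letters only. Myc itself averaged 20.4 ± 6.32 CPM in LPS with 1 mM melatonin, 66.5 ± 13.9 CPM in LPS, 0.331 ± 0.222 CPM in 1 mM melatonin and 6.24 ± 2.45 CPM in solvent (SD, n = 3 each). Myc rose in LPS against solvent (log2 fold change 3.40, adjusted p = 6.6e-10) and fell in LPS with 1 mM melatonin against LPS (-1.71, adjusted p = 0.00036). In LPS with 0.1, 1, 10 and 100 µM melatonin it averaged 96.6, 101, 99.3 and 97.4 CPM, all above LPS alone. Mycn, a relative of Myc, went the other way, with 187 ± 33.7 CPM in LPS with 1 mM melatonin, 74.3 ± 21.4 CPM in LPS and 307 ± 20.1 CPM in solvent. Whether either gene has a part in the levels of the 41 genes was not tested.

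Other genes of the pathway were set beside the 41. In LPS against solvent, 7 of 43 other small subunit factors (16.3%) and 8 of 46 other large subunit factors (17.4%) rose and 0 fell, beside 8.4% of all genes that rose, with median log2 fold changes of 0.38 and 0.23. Esf1 (log2 fold change 1.28) and Utp4 (1.19) stood in the small subunit list, and Mdn1 (0.87), a remodelling ATPase, and Eif6 (1.11), an anti-association factor, stood in the large subunit list. Of 12 other genes of the Pol I machinery 0 rose, and Ubtf, the factor that opens ribosomal DNA, fell (-0.91). The 10 other snoRNP genes had 0 calls, as did the 14 tested genes of the RNA exosome and rRNA trimming. With 1 mM melatonin in LPS, 2 small subunit factors (Esf1 -0.92 and Dcaf13 -0.72) and 4 large subunit factors (Mdn1 -1.06, Sdad1 -1.05, Lsg1 -0.66 and Ddx24 -0.62) fell. Those are 4.65% and 8.7% of their lists, the first near the 4.71% of all genes that fell.

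Ribosomal proteins are built into the subunits that this pathway makes. In LPS against solvent, of 80 tested, 0 rose and 5 fell (6.25%, beside 8.09% of all genes), with a median log2 fold change of -0.11. With 1 mM melatonin in LPS, 1 rose and 7 fell (8.75%, beside 4.71% of all genes), with a median of -0.29. Genes of mitosis and DNA replication fell in LPS against solvent in 23 of 26 cases, beside 8.09% of all genes, with a median log2 fold change of -1.73. The proliferation marker Mki67 averaged 327 ± 19.7 CPM in LPS and 2259 ± 105 CPM in solvent. With 1 mM melatonin in LPS, 5 of the 26 rose, beside 2.84% of all genes, Mki67 among the 5 (log2 fold change 0.58). The part of the cell cycle in the levels of the 41 genes was not tested.

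**Figure D5:**
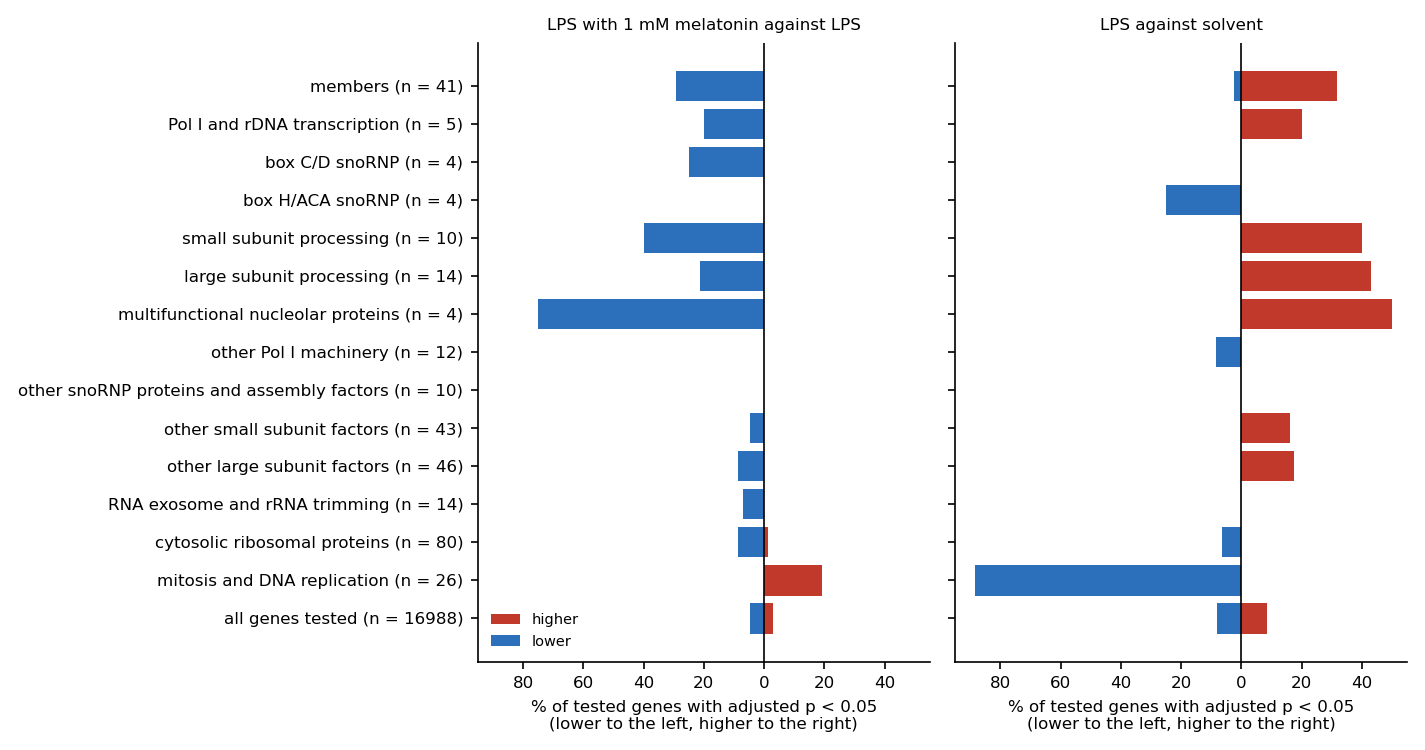
Share of tested genes (horizontal axis, %) called lower (blue, left) and higher (red, right) for the 41 genes, their roles, other lists of the pathway and all genes, in LPS with 1 mM melatonin against LPS (left panel) and LPS against solvent (right panel). The 41 genes stand at 29.3% lower in the first and 31.7% higher in the second, beside 4.71% and 8.4% of all genes.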

How the data were processed

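RNA was sequenced from 36 libraries of 1 cell line, 3 for each of 12 groups. The authors deposited raw gene counts and FPKM values; per the submitters' processing notes, reads were trimmed with cutadapt and counted with featureCounts on mm10. The aligner, annotation and strand setting are not given in the sources used here. The deposited FPKM served only for levels between genes; CPM, on TMM-scaled library sizes, and all tests came from the counts. Of 53465 genes, 16988 passed filterByExpr. The quasi-likelihood test of edgeR 4.0.16 (R 4.3.3) with TMM scaling was fitted to all 36 libraries with 1 mean per group, and p-values were adjusted by Benjamini-Hochberg over all genes tested, at a threshold of 0.05. Fold changes use edgeR's fit, errors are its SE, and calls are two-sided. The fit was also run on simulated data whose spread was set by a formula, not taken from these libraries, so that run does not measure error rates here. Alternatives were DESeq2 1.42.0, other scaling and filters, a replicate block, fewer libraries, and, chosen after seeing the data, adding pseudogene copies. Same-numbered libraries did not deviate together, with correlations of -0.035 to 0.028, so the numbers do not pair them. The 41 genes and all lists were chosen with earlier results of these data known. Values per library are given for up to 8 genes with the smallest adjusted p in each main comparison and for 11 core genes; others that the text names were chosen after their values were seen. Floors cover counting error only.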

Additional observations from a re-analysis of the deposited data

How the results depend on the processing

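With the replicate number as a replicate block, 13 genes were higher and 1 lower in LPS against solvent, 11 were lower in LPS with 1 mM melatonin against LPS, and 1 was called at 100 µM with LPS; the numbers pair no samples. With only the compared libraries fitted, 3 genes were lower in LPS with 1 mM melatonin against LPS, 0 were higher and 0 lower in LPS with 1 mM melatonin against 1 mM melatonin, 2 were called at 0.1 µM alone, 5, 4 and 6 at 1, 10 and 100 µM with LPS, and 3 had a slope. DESeq2 called 1 lower at 1 mM alone, 3 in the interaction, 2 at 0.1 µM, 1 at 1 µM, and 3, 1 and 4 at 1, 10 and 100 µM with LPS. Protein-coding genes only gave 3 and no filter gave 1 in the interaction. Without the 2 libraries in doubt, 5 were lower at 1 mM alone (median -0.33), 6 were higher in LPS with 1 mM melatonin against 1 mM melatonin, 2 were called at 0.1 µM, and 2 and 4 at 1 and 100 µM with LPS. With pseudogene copies added, the median was -0.49 in LPS with 1 mM melatonin against LPS and -0.22 in the interaction.

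Leaving out 1 library gave 8 to 10 higher, 0 to 2 lower and medians of 0.34 to 0.43 in LPS against solvent. In LPS with 1 mM melatonin against LPS it gave 9 to 11 lower and medians of -0.38 to -0.24, and at 1 mM alone 0 to 2 lower and medians of -0.33 to -0.18. In LPS with 1 mM melatonin against 1 mM melatonin it gave 2 to 5 higher, 0 to 1 lower and medians of 0.14 to 0.29, and in the interaction 0 to 1 lower and medians of -0.24 to -0.065. It gave 0 to 1 calls at 1 µM alone, 0 at 0.1 µM alone, 0 to 1 at 0.1, 1 and 100 µM with LPS, and 3 to 8 slopes. The causes were not tested. Over all alternatives, the 14 calls in LPS against solvent were lost in 31 of 196 fits of a gene, the 12 calls in LPS with 1 mM melatonin against LPS in 31 of 168, and the 4 calls in LPS with 1 mM melatonin against 1 mM melatonin in 14 of 56. None of the called genes given by library changed sign. Genes with few reads, such as Fbl, Rrp9 and Polr1e, could not be placed at this depth.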
